A study of Mus musculus with 8 samples.

Results

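Oxidative phosphorylation (OXPHOS) was examined as the set of genes that encode the subunits of the respiratory chain and of the ATP synthase. The members are the protein-coding rows of the deposited table with mt-Nd, mt-Co, mt-Atp, mt-Cytb, Nduf, Cox4 to Cox8, Uqcr, Atp5 or Sdha to Sdhd symbols, without pseudogene symbols. The rule gave 93 of the 23355 genes of the table, 13 encoded by the mitochondrial chromosome and 80 by the nucleus. By complex these were 42 genes of complex I, 4 of complex II, 9 of complex III, 19 of complex IV and 19 of complex V, with Ndufa4 and Ndufa4l2 counted with complex IV. The protein-coding row Ndufb1-ps was left out by its symbol, at 559 to 929 counts a library. The rule uses no measured value.

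Total RNA was sequenced from sorted epithelial cells of the buccal (cheek) lining of wild type C57BL/6 mice kept free of specific pathogens and left untreated. One group was 1 week old (4 mice) and the other 8 weeks old (4 mice), with 1 library each, numbered 1 to 4 within an age. The epithelium was freed with dispase II before the sort, and the libraries were stranded, depleted of ribosomal RNA and held 11747783 to 16807773 counts. The labels do not give the gate, the sex of the mice or any batch.

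The respiratory chain sits in the inner mitochondrial membrane, where complexes I and II pass electrons to coenzyme Q, complex III passes them to cytochrome c, and complex IV gives them to oxygen. The proton gradient built on the way drives the ATP synthase, complex V. All complexes except complex II combine subunits of both genomes: the mitochondrial ones are transcribed inside the organelle as long polycistronic RNAs, and the nuclear ones are made in the cytosol and imported.

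The labelled cell type was checked by markers. The 8 keratinocyte markers (Krt5, Krt14, Krt15, Krt4, Krt13, Trp63, Cdh1 and Epcam) summed to 35870 to 41557 CPM (read counts scaled to the size of the library) at 1 week and 27904 to 38022 CPM at 8 weeks, and 0 of the 8 were called between the ages. Markers of skeletal muscle, a tissue rich in mitochondria, summed to 5.72 to 7.10 CPM at 1 week and 4.52 to 7.95 CPM at 8 weeks (8 of 9 genes in the table), with 2 high enough to be tested and 0 called. Of the 3 brown fat markers only Cidea is a row of the table as used here, at 0.716 CPM or less, too low to be tested. Fibroblast markers (5 of 6 in the table) summed to 923 to 1161 CPM at 1 week and 400 to 776 CPM at 8 weeks, with 1 tested, which was called lower. The rest of these markers were too low to be tested, so that 1 gene makes up most of the sum. Red cell markers summed to 3.38 to 13.7 CPM and 22.9 to 71.4 CPM, with 3 of 5 called higher. Endothelium (4 of 5 in the table), leukocyte (5 of 7) and melanocyte markers (3 of 4) summed to 10.1 CPM or less in every library, with 3, 2 and 2 tested and 0 called. The part of these cells in the OXPHOS results was not tested. In such bulk RNA, fewer cells of a type and less RNA per cell cannot be told apart.

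The mitochondrially encoded mRNAs come first, beginning with how far their reads can be assigned. Stretches of the mitochondrial chromosome have been copied into the mouse nuclear genome, and the annotation lists such copies as pseudogenes. Of the 50-base words of each mRNA, the share that also occurs in a transcript of another annotated gene was 100% for mt-Co2, 99.9% for mt-Co3, 99.5% for mt-Atp6, 98.8% for mt-Nd4l and 98.0% for mt-Nd3. It was 62.2% for mt-Nd4, 51.1% for mt-Co1, 8.19% for mt-Nd2 and 7.61% for mt-Nd5, and 0% for mt-Cytb, mt-Nd1, mt-Nd6 and mt-Atp8. The 5 mRNAs at 98.0% or more have copies close together on the minus strand of chromosome 1. Windows of 60 bases are shown as examples of how closely a copy can match: mt-Co2 at chrMT:7323-7382 (plus strand) beside Gm28661 at chr1:24615196-24615255 (minus strand), and mt-Nd3 at chrMT:9459-9518 (plus strand) beside Gm28438 at chr1:24613060-24613119 (minus strand), from GENCODE M21 transcripts on GRCm38. Capitals mark bases that differ within a pair.
mt-Co2: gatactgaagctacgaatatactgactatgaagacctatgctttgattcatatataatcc
Gm28661: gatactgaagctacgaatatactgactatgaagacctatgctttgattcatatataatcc
mt-Nd3: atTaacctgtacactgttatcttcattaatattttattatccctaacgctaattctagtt
Gm28438: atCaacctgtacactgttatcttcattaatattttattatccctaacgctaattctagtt
Over the aligned length, mt-Co2 and Gm28661 differed at 0 of 681 bases, mt-Co3 and Gm28437 at 0 of 783, mt-Atp6 and Gm10925 at 0 of 678, mt-Nd4l and Gm10222 at 0 of 294, and mt-Nd3 and Gm28438 at 1 of 345.

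Levels of the 13 mRNAs followed that split. Per kilobase of transcript and averaged over the 8 libraries, the 8 mRNAs with fewer shared words stood between 129 CPM per kb (mt-Nd6, a complex I subunit read from the other strand) and 889 CPM per kb (mt-Cytb, the cytochrome b of complex III). The 5 mRNAs with nearly all words shared stood between 0.711 CPM per kb (mt-Nd4l) and 14.4 CPM per kb (mt-Atp6). mt-Atp8 and mt-Atp6, ATP synthase subunits that overlap on 1 mRNA, differed 49.6-fold in this level, at 715 and 14.4 CPM per kb. mt-Nd4 and mt-Nd4l, complex I subunits on another shared mRNA, differed 318-fold, at 226 and 0.711 CPM per kb. Pseudogene rows held few counts: Gm10925 at most 4 in a library, Gm28439 (a copy of mt-Nd4) at most 7 and Gm13340 (a copy of mt-Co1) at most 32. The other copies, Gm28661, Gm28437, Gm28438 and Gm10222, are not rows of the table as used here. How reads that align at several places were counted is not given in the sources used here, so the levels of the 5 mRNAs are uncertain. Those of mt-Nd4 and mt-Co1, with 62.2% and 51.1% of their words shared, are uncertain in part. The fold between mt-Nd4 and mt-Nd4l is uncertain too.

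**Figure D1:**
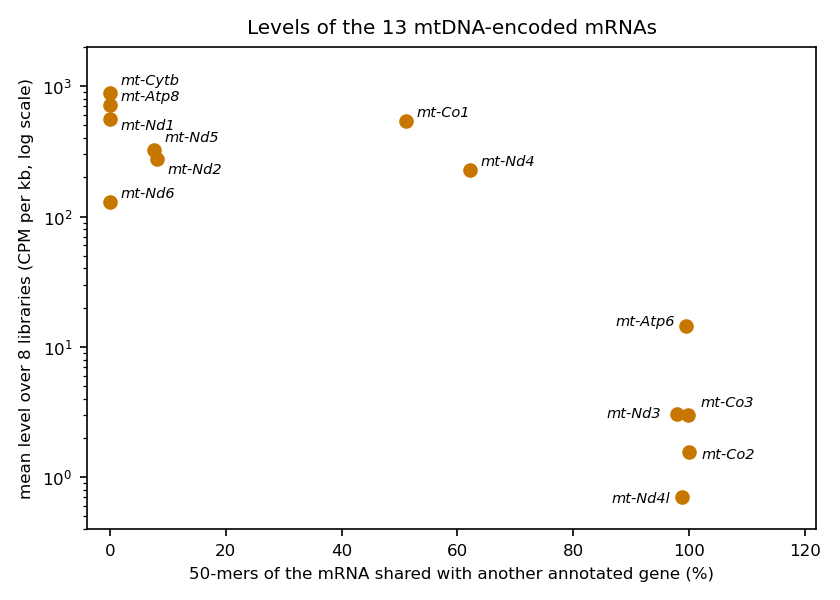
Mean level over the 8 libraries (CPM per kb of transcript, log scale) of each of the 13 mitochondrially encoded mRNAs against the share of its 50-base words that occurs in another annotated gene (%). The 8 mRNAs at 62.2% or less stand at 129 CPM per kb or more, and the 5 at 98.0% or more at 14.4 CPM per kb or less.

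No mitochondrially encoded mRNA passed the test between the ages. Log2 fold changes of 8 weeks over 1 week had a median of 0.35 over the 12 tested, with 10 positive and 2 negative values, against a median of -0.0025 over all 14533 genes tested. Adjusted p lay between 0.168 (mt-Atp8) and 0.683 (mt-Co3) by edgeR's quasi-likelihood test, whose calls are adjusted p under 0.05 over all genes tested. It called 3.33% of all genes higher, 15 of 2454 in the shortest of 5 length classes of protein-coding genes, and 0 of these 12. mt-Atp8 was the 1 of them under 0.05 without adjustment, and DESeq2 also called 0. mt-Nd4l, at 0 to 12 counts a library, was too low to be tested. The median lay between 0.21 (without 1 week 1) and 0.45 (without 1 week 3) when 1 library was left out, and was 0.04 without 1 week 1, 8 weeks 1 and 8 weeks 3.

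By CPM as counted, mt-Cytb was the highest of them. Per unshared 50-base word mt-Co1 and mt-Atp8 stood above it, and the 5 mRNAs with nearly all words shared cannot be ranked. mt-Cytb stood at 608, 742, 1259 and 991 CPM in libraries 1 to 4 of 1 week and at 1356, 947, 1191 and 1044 CPM in those of 8 weeks. The ages overlapped, since 1 week 3 was above 3 of the 4 libraries of 8 weeks, and the log2 fold change was 0.33 ± 0.20 (SE; adjusted p = 0.288, edgeR). mt-Co1, the catalytic subunit of complex IV, had 514, 643, 949 and 919 CPM at 1 week and 1171, 763, 844 and 832 CPM at 8 weeks (log2 fold change 0.26 ± 0.19, adjusted p = 0.410, edgeR). Its highest libraries of 1 week, 3 and 4, also lay inside the range of 8 weeks. mt-Nd1, mt-Nd2, mt-Nd4 and mt-Nd5, membrane subunits of complex I, had log2 fold changes of 0.32 ± 0.17, 0.36 ± 0.19, 0.34 ± 0.20 and 0.39 ± 0.21.

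Libraries of 1 week differed among themselves in these mRNAs. 1 week 1 was the lowest of all 8 libraries for 6 of the 8 mRNAs with fewer shared words, and 8 weeks 1 was the highest for 6. 8 weeks 2 was the lowest of its age for all 8. mt-Nd6 kept another order, with 51.2, 47.0, 49.7 and 85.0 CPM at 1 week and 86.6, 47.5, 91.0 and 77.8 CPM at 8 weeks (log2 fold change 0.38 ± 0.21, adjusted p = 0.256, edgeR). Here 1 week 4 was far above the rest of its age, while 1 week 3, the highest of its age for mt-Cytb, was not. As a share of the mt-Cytb counts, mt-Nd6 was 6.82% ± 2.17 at 1 week and 6.62% ± 1.20 at 8 weeks (SD, n = 4), a difference smaller than the spread. mt-Nd6 overlaps mt-Nd5, on the other strand, at chrMT:13552-13565. The strand setting of the counting is not given, so its counts may hold reads of the other strand.

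mt-Atp8 had 109, 101, 173 and 119 CPM at 1 week and 189, 128, 211 and 138 CPM at 8 weeks (log2 fold change 0.41 ± 0.19). Of the mRNAs with nearly all words shared, mt-Co2, another catalytic subunit of complex IV, had 0.626, 1.28, 1.53 and 1.25 CPM at 1 week and 0.981, 1.12, 0.582 and 1.12 CPM at 8 weeks. Log2 fold changes were -0.31 ± 0.41 for mt-Co2, -0.24 ± 0.35 for mt-Co3, 0.42 ± 0.38 for mt-Nd3 and 0.39 ± 0.21 for mt-Atp6. The 2 negative values of the mitochondrial set were thus both among them. Over the other 8 mRNAs all values were positive, from 0.26 (mt-Co1) to 0.41 (mt-Atp8).

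Nuclear-encoded OXPHOS genes ran the other way. Of the 80, 78 passed the filter on low counts, and 77 of these had a negative log2 fold change. In the shortest of 5 length classes of protein-coding genes, which held 67 of the 78, 81.1% of genes had a negative value. The median of the 78 was -0.40, which is a level 1.32-fold lower at 8 weeks. By edgeR 22 (28.2%) were called lower and 0 higher, while 3.22% of all genes tested were called lower. In 37 of the 78 (47.4%) all 4 libraries of 8 weeks lay under all 4 of 1 week, against 7.11% of all genes tested, and 0 had the opposite order, against 7.69%. These shares are over genes of all lengths, and such orders were not counted by length class. Without adjustment 61 members were lower at a p under 0.05. DESeq2 called 47 members lower (7.45% of all genes) and limma-voom 46 (5.97%). In the authors' deposited table, 32 of the 80 were lower at 8 weeks at an adjusted p under 0.05, against 3.28% of its genes.

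The edgeR calls rested on the full set of libraries. Atp5e was called in all 8 fits that leave out 1 library, Cox6b2 in 7, and Uqcr11, Uqcrq, Ndufa7 and Atp5l in 5, while 11 of the 22 were called in at most 2. The number called lower was 1 without 8 weeks 3, 2 without 8 weeks 1, 2 without 1 week 1 and 7 without 8 weeks 4. It was 9 without 1 week 4, 15 without 1 week 3, 16 without 1 week 2 and 50 without 8 weeks 2. Calls over all genes moved too, from 952 of 14533 with every library to 91 of 14796 without 8 weeks 3, 136 of 14796 without 8 weeks 1 and 130 of 14973 without 1 week 1. They were 376 of 14900 without 8 weeks 4, 774 of 14941 without 1 week 4, 718 of 14945 without 1 week 3, 615 of 14950 without 1 week 2 and 1891 of 15016 without 8 weeks 2. The median of the nuclear-encoded members stayed between -0.49 and -0.33 over these fits.

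**Figure D2:**
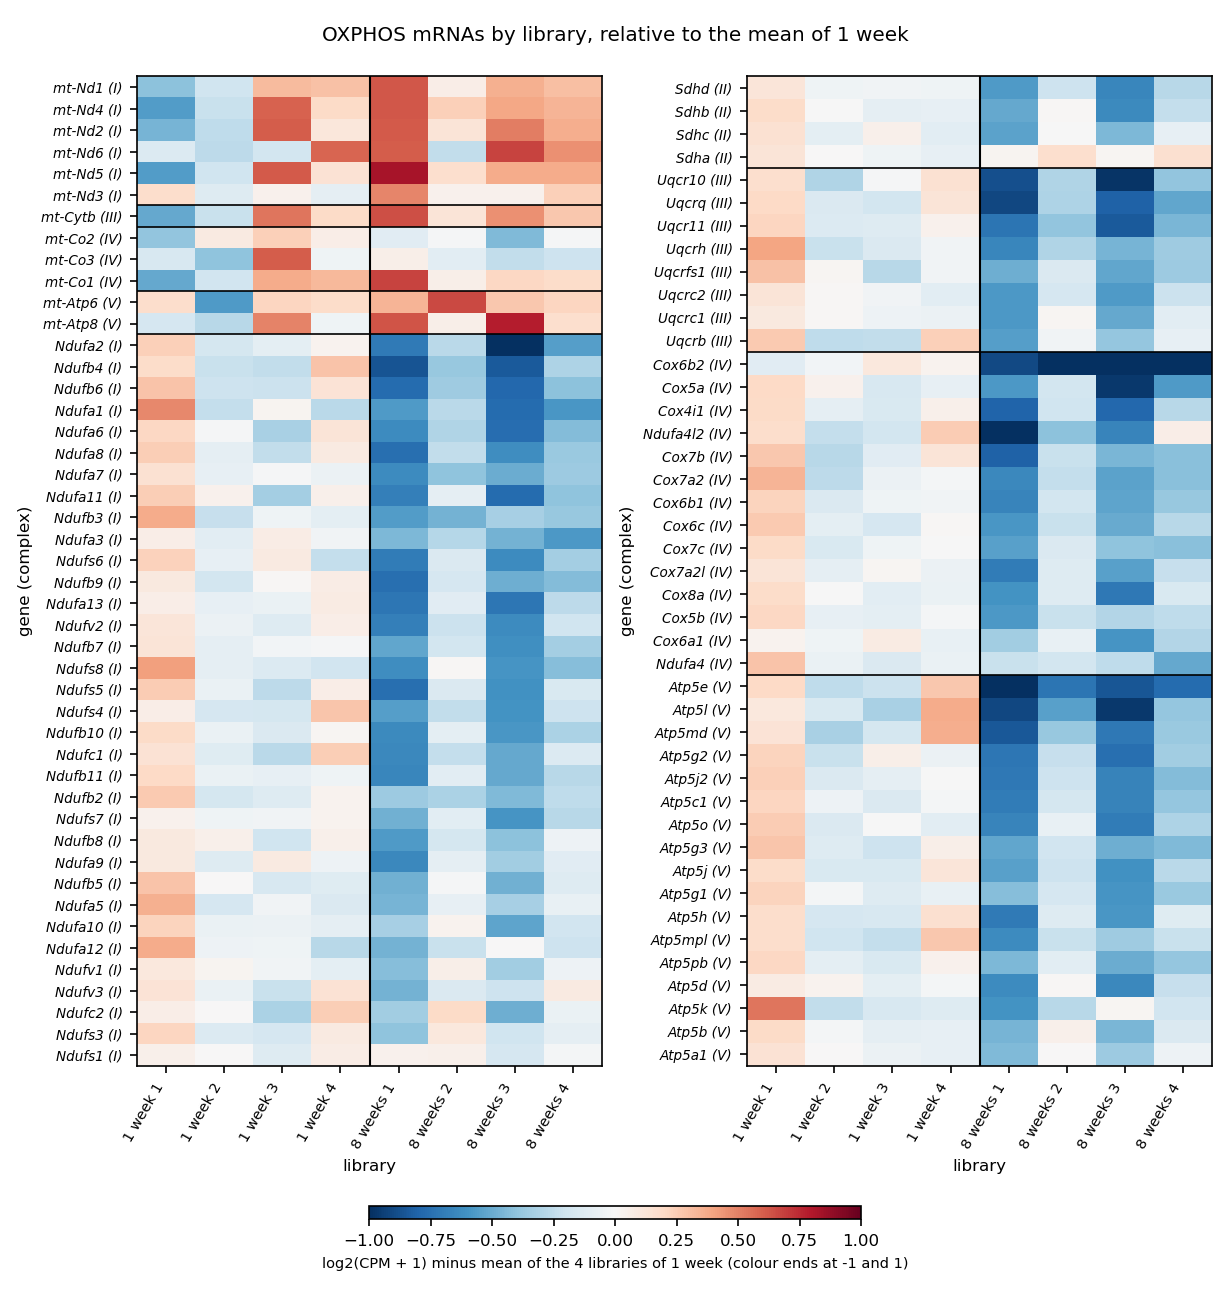
Level of tested OXPHOS genes in each of the 8 libraries (1 nuclear-encoded gene is not shown), as log2(CPM + 1) minus the mean of the 4 libraries of 1 week, with genes in rows by genome and complex (in parentheses). Blue is lower and red higher: nuclear-encoded rows are bluest in 8 weeks 1 and 8 weeks 3 and paler in 8 weeks 2, and most mitochondrially encoded rows are red in 8 weeks 1, 8 weeks 3 and 1 week 3.

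The libraries did not contribute alike. Over the 78 nuclear-encoded genes, 1 week 1 was the highest of all 8 libraries for 61, and the lowest was 8 weeks 1 for 46 and 8 weeks 3 for 28. Median deviations from the mean of 1 week, on the log2(CPM + 1) scale, were 0.19, -0.09, -0.12 and -0.01 in libraries 1 to 4 of 1 week and -0.60, -0.18, -0.56 and -0.28 in those of 8 weeks. 8 weeks 2 was above the lowest library of 1 week for 39 of the 78 genes and 8 weeks 4 for 20, whereas 8 weeks 1 was for 2 and 8 weeks 3 for 4.

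**Figure D3:**
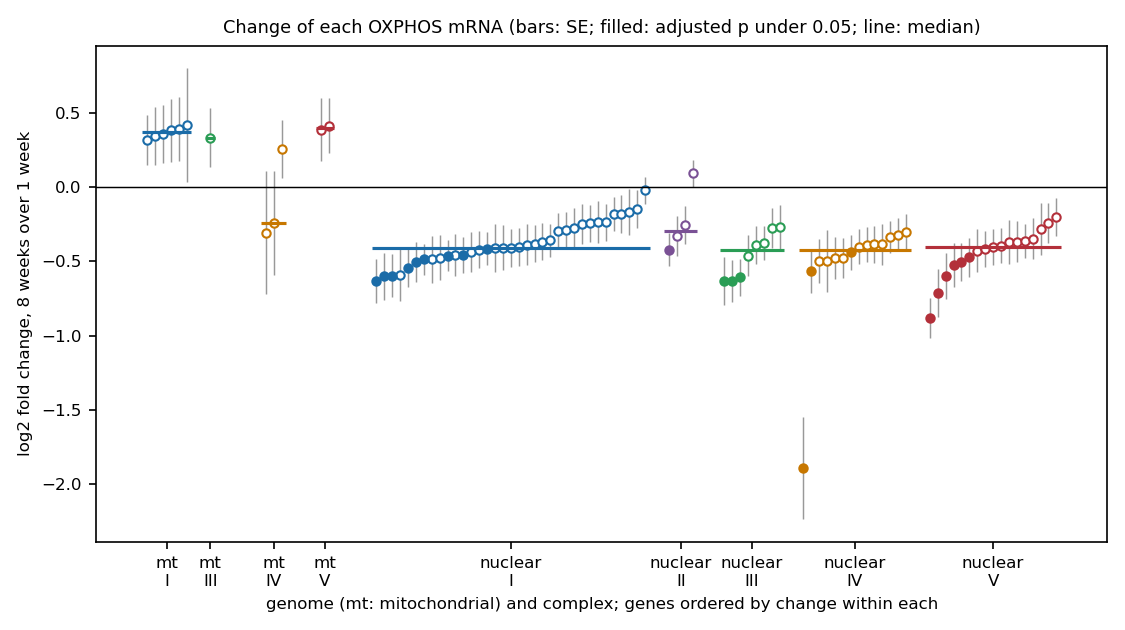
Log2 fold change of 8 weeks over 1 week of each tested OXPHOS gene (points; bars are SE) by genome and complex, with filled points called at an adjusted p under 0.05 and lines at each median. Nuclear-encoded medians lie between -0.43 (complex III) and -0.29 (complex II), and no mitochondrially encoded gene is called.

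Among the complexes the nuclear-encoded medians lay close together: -0.41 for complex I (35 tested genes), -0.29 for complex II (4), -0.43 for complex III (8), -0.42 for complex IV (14) and -0.41 for complex V (17). Differences between complexes were not tested. Called lower were 9, 1, 3, 3 and 6 genes, and all 4 libraries of 8 weeks lay under those of 1 week for 13, 1, 5, 10 and 8 genes.

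Complex I takes electrons from NADH through a core of flavin, iron-sulfur and membrane subunits conserved from bacteria, surrounded by accessory subunits. The 9 called members were all accessory: Ndufa2, Ndufb4, Ndufb6, Ndufa6, Ndufa8, Ndufa7, Ndufa3, Ndufb9 and Ndufb7, with log2 fold changes from -0.63 (Ndufa2) to -0.41 (Ndufb7). Ndufa7 (chr17:33824572-33838317, plus strand) had 45.4, 38.6, 40.4 and 39.1 CPM at 1 week and 26.0, 30.5, 28.7 and 31.4 CPM at 8 weeks. The ages did not overlap, and the log2 fold change was -0.49 ± 0.10 (adjusted p = 0.0234, edgeR). Ndufa3 was separated in the same way, with 34.0, 30.0, 34.3 and 31.6 CPM and then 23.4, 26.4, 23.1 and 21.5 CPM (-0.46 ± 0.11, adjusted p = 0.0296, edgeR). Ndufa6, Ndufa8 and Ndufb9 were called although their ages overlapped.

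Of the 7 nuclear-encoded core subunits of complex I, among them Ndufs1 and Ndufv2, 0 were called. This grouping was made after the values were seen and the difference was not tested. Their median log2 fold change was -0.24, from -0.42 (Ndufv2) to -0.02 (Ndufs1, the largest iron-sulfur subunit), beside -0.41 over the 28 accessory genes. Ndufs1 stood at 115, 111, 101 and 117 CPM at 1 week and 114, 115, 98.5 and 109 CPM at 8 weeks, in overlapping ranges. The core genes also have longer transcripts, with a median of 1623 bp against 868 bp for the accessory genes.

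Complex II, succinate dehydrogenase, is part of the citric acid cycle too and has no mitochondrially encoded subunit. Sdhd, a membrane anchor, was called lower, with 98.5, 87.6, 88.1 and 87.8 CPM at 1 week and 60.7, 78.2, 57.3 and 74.5 CPM at 8 weeks (-0.42 ± 0.11, adjusted p = 0.0451, edgeR). Its ages did not overlap, and the libraries of 1 week other than 1 lay within a narrow range. Sdhb, the iron-sulfur subunit, and Sdhc, the other anchor, had -0.33 ± 0.13 (adjusted p = 0.131) and -0.26 ± 0.13 (adjusted p = 0.208) by edgeR. Sdha, the flavoprotein with the active site, stood at 160.0, 146, 142 and 138 CPM at 1 week and 149, 164, 148 and 164 CPM at 8 weeks (0.09 ± 0.09, adjusted p = 0.528, edgeR). It was the 1 nuclear-encoded member with a positive log2 fold change.

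Complex III had 3 small subunits called lower, and 5 of its 8 nuclear-encoded genes were without overlap between the ages. Uqcr11 (chr10:80402997-80406830, minus strand) had 123, 95.8, 96.7 and 109 CPM at 1 week and 63.4, 80.2, 58.5 and 76.5 CPM at 8 weeks (-0.61 ± 0.12, adjusted p = 0.0199, edgeR). Uqcrq (chr11:53427922-53430831, minus strand) had 208, 163, 159 and 197 CPM and then 95.6, 146, 103 and 126 CPM (-0.63 ± 0.14, adjusted p = 0.0270, edgeR). Every library of 8 weeks lay under every one of 1 week in both, most narrowly 8 weeks 2. Uqcr10 had 71.1, 51.2, 62.6 and 70.4 CPM and then 34.1, 51.2, 31.5 and 48.0 CPM (-0.63 ± 0.16, adjusted p = 0.0394, edgeR), where 1 week 2 and 8 weeks 2 all but met. Uqcrc1, a large core protein and the most abundant by CPM of the complex's nuclear-encoded genes, had means of 461 ± 23.4 CPM and 381 ± 77.2 CPM (SD over 4 libraries; -0.27 ± 0.13, adjusted p = 0.204, edgeR).

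Complex IV has 3 mitochondrially encoded subunits, and several of its nuclear-encoded ones come in tissue-specific forms. Cox6b2, the form of subunit VIb known from testis (chr7:4751792-4753094, minus strand), had the most negative value of all members. It stood at 2.15, 2.33, 2.66 and 2.49 CPM at 1 week and 0.817, 0.524, 0.582 and 0.632 CPM at 8 weeks, 3.71-fold lower (-1.89 ± 0.35, adjusted p = 0.0146, edgeR). No library of 8 weeks reached any of 1 week, at a level that was low throughout. Its common counterpart Cox6b1 had 124, 96.5, 103 and 104 CPM and then 67.1, 93.4, 73.4 and 81.8 CPM (-0.44 ± 0.12, adjusted p = 0.0459, edgeR), also without overlap. Cox5a, a subunit of the matrix side, was the third called gene (-0.57 ± 0.15, adjusted p = 0.0422, edgeR).

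Other paired forms of complex IV were present unequally. Cox4i1, the common form of subunit IV, stood at 410.5 ± 44.3 CPM at 1 week and 291 ± 64.2 CPM at 8 weeks (SD, n = 4; -0.50 ± 0.15, adjusted p = 0.0586, edgeR), whereas Cox4i2, known as a lung form, had 0 to 4 counts a library. Cox7a1, the heart and muscle form of subunit VIIa, had 0 to 5 counts, while the common Cox7a2 had -0.47 ± 0.13 (adjusted p = 0.0510) and Cox7a2l, a supercomplex factor rather than a subunit, -0.39 ± 0.13 (adjusted p = 0.0757) by edgeR. Cox6a1 and Cox8a, the common forms, had -0.32 ± 0.11 and -0.38 ± 0.14 (adjusted p = 0.0884 and 0.0936, edgeR). Their muscle forms Cox6a2 and Cox8b are not rows of the table as used here. Ndufa4 and its paralog Ndufa4l2, known as a gene induced under low oxygen, had -0.30 ± 0.12 and -0.49 ± 0.21 (adjusted p = 0.121 and 0.145, edgeR).

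Complex V has a catalytic head, a central stalk and a ring of c subunits in the membrane. Atp5e, the epsilon subunit of the stalk (chr2:174461072-174464105, minus strand), gave the smallest adjusted p of all members. It had 94.9, 69.1, 70.9 and 100.1 CPM at 1 week and 39.2, 49.3, 45.3 and 48.0 CPM at 8 weeks, 1.84-fold lower (-0.88 ± 0.13, adjusted p = 0.00807, edgeR). Every library of 8 weeks lay well under the lowest of 1 week. Atp5c1, the gamma subunit of the same stalk, was called at -0.47 ± 0.13 (adjusted p = 0.0478, edgeR). Atp5a1 and Atp5b, the alpha and beta subunits of the head, had -0.20 ± 0.13 and -0.24 ± 0.14 (adjusted p = 0.312 and 0.261, edgeR). Atp5a1, the most abundant nuclear-encoded member of the complex by CPM, stood at 1008 ± 72.7 CPM at 1 week and 875 ± 134 CPM at 8 weeks (SD, n = 4).

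Membrane subunits of the ATP synthase made up the other calls. Atp5l, subunit g, had 164, 137, 121 and 198 CPM at 1 week and 80.5, 105, 77.8 and 116 CPM at 8 weeks without overlap (-0.71 ± 0.16, adjusted p = 0.0295, edgeR), but 84.8% of its 50-base words occur in other annotated genes, so its level is uncertain. Atp5md and Atp5j2, small proteins of the membrane part, had -0.60 ± 0.16 and -0.50 ± 0.13 (adjusted p = 0.0422 and 0.0384, edgeR). The c ring is encoded by 3 genes that give the same mature protein: Atp5g2 was called (-0.53 ± 0.15, adjusted p = 0.0485) and Atp5g3 (-0.42 ± 0.12, adjusted p = 0.0541) and Atp5g1 (-0.40 ± 0.12, adjusted p = 0.0586) were not, by edgeR. Over all nuclear-encoded members, 33 of the 78 tested shared no 50-base word with another gene. These 33 had a median log2 fold change of -0.41 and held 10 of the 22 calls. The exons of 29 of the 80 overlap another gene, 26 of them one on the other strand, and the strand setting of the counting is not given in the sources used here.

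Promoters of the nuclear genes were read for motifs of factors known to act on respiratory genes. RefSeq promoter windows (GRCm38.p6, 250 bases before to 50 after a start) matched 66 of the 80 genes by NCBI gene ID. The letters searched, on both strands, were CGCATGCG for the core of the NRF1 site (its own reverse complement), CCGGAAGT for ETS factors such as GABP, AAGATGGC for YY1 and TCAAGGTCA for estrogen-related receptors. They occurred at 9, 5, 10 and 2 of the 66 genes (13.6%, 7.58%, 15.2% and 3.03%), against 2.07%, 4.31%, 3.19% and 0.466% of the 27025 genes with a window. Called members with the motif numbered 4, 1, 2 and 1. Median log2 fold changes of genes with and without the letters, given as a description, were -0.49 and -0.40 for NRF1, -0.38 and -0.41 for ETS, -0.40 and -0.41 for YY1, and -0.42 and -0.41 for estrogen-related receptors. The 250 bases before the start are shown for 3 called genes that hold a motif there and for Atp5e, the most firmly called, which holds none. Capitals mark the motif, and all 4 genes lie on the minus strand.
Uqcr11, chr10:80406822-80407071: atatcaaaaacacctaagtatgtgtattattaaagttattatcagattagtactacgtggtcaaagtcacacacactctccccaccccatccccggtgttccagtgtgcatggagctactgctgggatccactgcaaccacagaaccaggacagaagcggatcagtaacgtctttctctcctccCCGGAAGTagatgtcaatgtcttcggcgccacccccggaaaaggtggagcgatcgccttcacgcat
Atp5g2, chr15:102671048-102671297: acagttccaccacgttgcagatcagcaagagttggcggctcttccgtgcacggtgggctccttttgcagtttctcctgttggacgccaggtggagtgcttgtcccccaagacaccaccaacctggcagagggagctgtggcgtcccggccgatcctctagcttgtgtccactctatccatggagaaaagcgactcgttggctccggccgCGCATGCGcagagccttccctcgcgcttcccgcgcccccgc
Ndufa8, chr2:36049339-36049588: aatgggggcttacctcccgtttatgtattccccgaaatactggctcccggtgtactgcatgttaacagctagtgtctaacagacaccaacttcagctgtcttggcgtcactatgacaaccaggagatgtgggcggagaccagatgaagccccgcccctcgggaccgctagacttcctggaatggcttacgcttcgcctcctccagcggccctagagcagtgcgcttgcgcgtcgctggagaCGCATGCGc
Atp5e, chr2:174464102-174464351: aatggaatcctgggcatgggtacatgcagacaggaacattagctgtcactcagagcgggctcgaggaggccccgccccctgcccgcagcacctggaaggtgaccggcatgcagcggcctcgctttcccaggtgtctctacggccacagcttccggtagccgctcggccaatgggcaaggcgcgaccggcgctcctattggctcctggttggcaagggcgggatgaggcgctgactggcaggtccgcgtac
A match is not a site of binding.

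Transcript length moved with the result. Length is here that of the longest annotated protein-coding transcript of a gene, which need not be the one expressed in these cells. Of the 80 nuclear-encoded genes 47, and of the 22 called ones 18, have a protein-coding transcript under 1000 bp. With tested protein-coding genes split into 5 equal classes by this length, the median log2 fold change went from -0.25 in the shortest class (198 to 1837 bp, 2454 genes) through -0.11, -0.03 and 0.07 to 0.21 in the longest. The shortest class held 67 of the 78 tested nuclear-encoded members, whose median was -0.41. All 67 had a negative value, as did 81.1% of the class. Of these 67, 21 (31.3%) were called lower, against 7.58% of the class. Among the 1261 genes of this class with a mean of at least 20 CPM, 12.1% were called lower and the median was -0.29, while 20 of the 65 members among them were called, with a median of -0.41. Across the 78 members, log2 fold change and length had a Spearman correlation of 0.47, a description over genes that share the same 8 libraries.

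Libraries differed in their own slope of expression on length, here that of the longest annotated transcript of any kind. Per doubling of length, on the log2 scale and over 10366 genes, it was -0.174, -0.046, -0.067 and -0.072 in libraries 1 to 4 of 1 week and 0.199, -0.022, 0.149 and 0.034 in those of 8 weeks. 1 week 1, the highest library for most nuclear-encoded members, had the lowest slope, and 8 weeks 1 and 8 weeks 3, the lowest libraries for most, had the highest. With a spline of each library on length and GC content of the protein-coding transcript as an offset, 3 members were called lower by edgeR, against 1.48% of all genes. They were Atp5e (-0.49, adjusted p = 0.0240), Uqcrq (-0.43, adjusted p = 0.0445) and Cox6b2 (-1.54, adjusted p = 0.0473). With the longest annotated transcript of any kind in its place, 5 were called (these 3, Atp5l and Ndufb7), against 1.51% of all genes.

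With the offset on the protein-coding transcript the nuclear-encoded median was -0.13, with 68 of 78 values negative, and the median over all genes was 0.01. By complex it was -0.11 for I, -0.13 for II, -0.17 for III, -0.10 for IV and -0.16 for V, and -0.07 and -0.12 for the core and accessory genes of complex I. The mitochondrially encoded median was 0.63, with 12 of 12 positive and 0 called. With 4 libraries an age, a slope that belongs to the age and one that belongs to the libraries cannot be told apart.

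**Figure D4:**
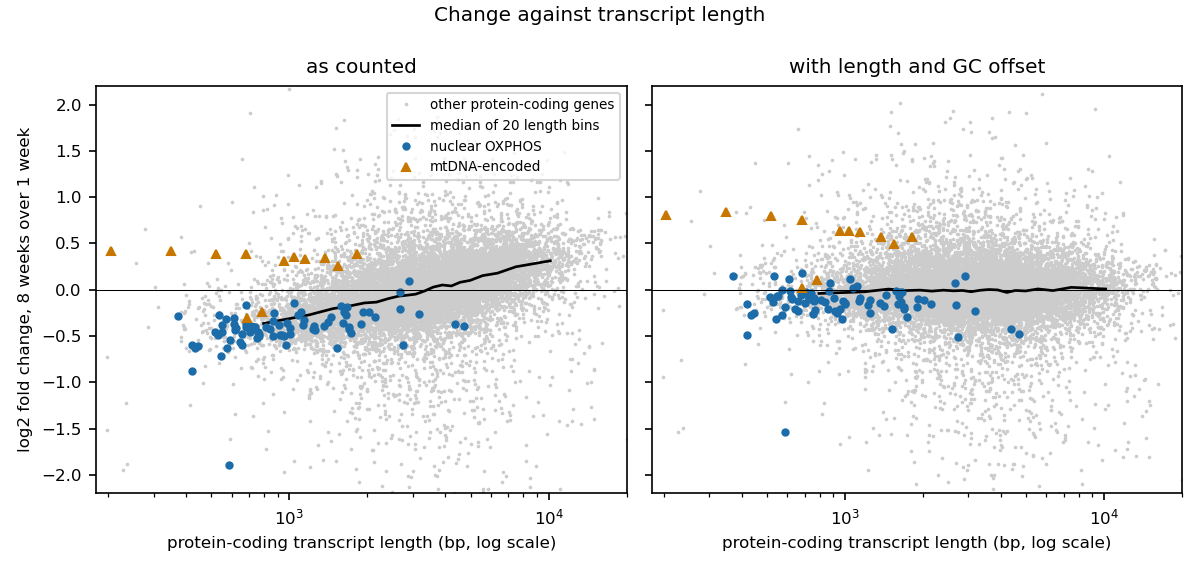
Log2 fold change of 8 weeks over 1 week against the length of the protein-coding transcript (bp, log scale) for tested protein-coding genes (grey), nuclear-encoded OXPHOS genes (blue) and mitochondrially encoded ones (triangles), as counted (left) and with the length and GC offset (right). The black line joins medians of 20 length bins, and the nuclear-encoded median is -0.40 on the left and -0.13 on the right, the mitochondrially encoded one 0.35 and 0.63.

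Summed over genes, the genomes were set against each other in each library. Nearly all mitochondrial counts fall on the 8 mRNAs with fewer shared words, and how reads with several alignments were counted is not given. The level of the mitochondrial share, and its standing against the nuclear sum, are therefore uncertain. The 13 mitochondrial mRNAs took 0.204%, 0.282%, 0.464% and 0.363% of the counts at 1 week and 0.565%, 0.360%, 0.427% and 0.400% at 8 weeks, which is 0.328% ± 0.111 and 0.438% ± 0.0892 (SD, n = 4). The ages overlapped. The 80 nuclear-encoded genes took 1.13%, 1.08%, 1.07% and 1.10% at 1 week and 0.83%, 1.07%, 0.79% and 0.98% at 8 weeks, which is 1.10% ± 0.0261 and 0.918% ± 0.131. Here 8 weeks 2 all but met the lowest library of 1 week. The log2 ratio of mitochondrial to nuclear OXPHOS counts was -2.47, -1.94, -1.21 and -1.60 at 1 week and -0.55, -1.58, -0.89 and -1.29 at 8 weeks. Its means were -1.80 ± 0.54 and -1.08 ± 0.45 (SD, n = 4), a difference of 0.73 with overlapping ages and no test. Without 1 week 1, 8 weeks 1 and 8 weeks 3, a set chosen after seeing the data, this difference was 0.15, and that in the mitochondrial share 0.00997 percentage points.

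Small structural RNAs (misc_RNA rows with Rmrp and Rpph1) also differed between libraries. They took 2.68%, 1.22%, 0.426% and 2.39% of the counts at 1 week and 0.844%, 0.383%, 0.882% and 0.510% at 8 weeks, and their part in these shares was not tested. Rmrp, the RNA of RNase MRP, was called lower (adjusted p = 0.0382, edgeR), at 7505, 2309.5, 809.8 and 3434 CPM at 1 week and 1009.6, 531, 1365 and 615 CPM at 8 weeks. Without 1 week 1 and 1 week 4, which held the most, 0 OXPHOS members were called by edgeR, and 26 were lower at an unadjusted p under 0.05. In that fit 60 of all 15516 genes tested were called, and the nuclear-encoded median was -0.29, with 74 of 78 values negative. Rn7sk, the 7SK RNA that binds an elongation factor of RNA polymerase II, had -1.53 ± 0.45 (adjusted p = 0.0578, edgeR).

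**Figure D5:**
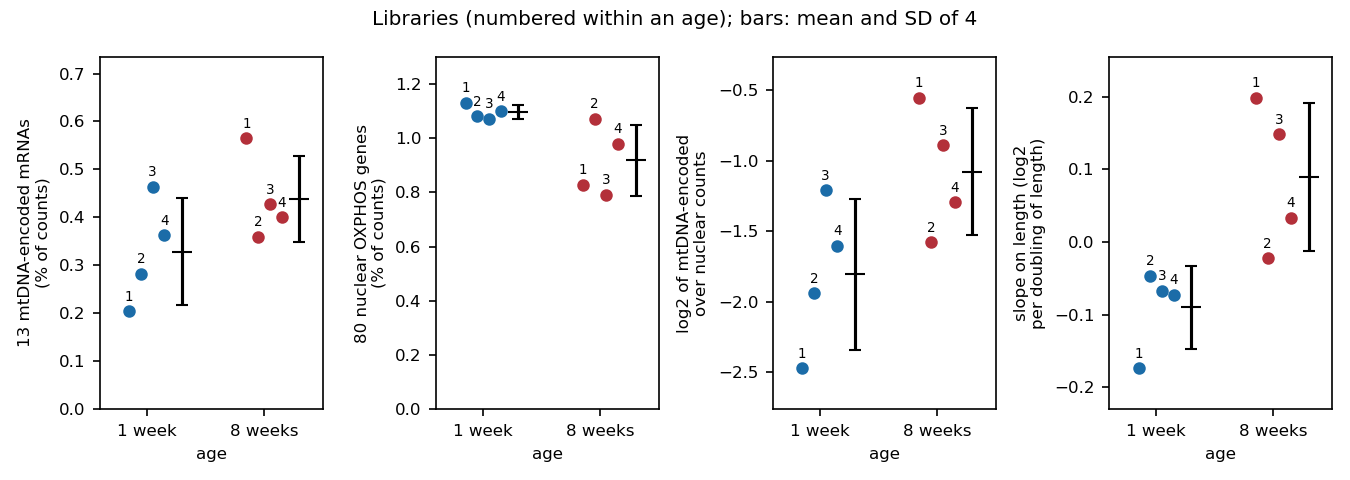
Share of counts (%) on the 13 mitochondrially encoded mRNAs and on the 80 nuclear-encoded OXPHOS genes, log2 ratio of both sums, and slope of expression on the length of the longest annotated transcript (log2 per doubling), for each library (points, numbered within an age) with the mean and SD of 4 beside them. Nearly all counts of the 13 fall on the 8 mRNAs with fewer shared words. 8 weeks 1 has the highest mitochondrial share (0.565%) and the highest slope (0.199), and 1 week 1 the lowest of both (0.204% and -0.174).

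Other mitochondrial genes were taken from lists of known function, in which 0 genes were called higher, against 3.33% of all genes tested. Among protein-coding genes by length class, 15 of 2454 were called higher in the shortest class and 302 of 2454 in the longest. Called lower were 3.22% of all genes tested and 7.58% of the shortest class of protein-coding genes. Of 11 tested electron carriers and subunits with other symbols, 1 was called lower: Higd1a, an inner membrane protein that acts on complexes III and IV, had 71.8, 45.3, 41.2 and 53.8 CPM at 1 week and 24.0, 27.2, 29.1 and 32.1 CPM at 8 weeks. Its ages did not overlap, and the log2 fold change was -0.92 ± 0.16 (adjusted p = 0.0127, edgeR), and -0.80 with the offset (adjusted p = 0.0240). Cytochrome c itself, Cycs, had -0.41 ± 0.12 (adjusted p = 0.0562) and Etfa, a subunit of the electron transfer flavoprotein, -0.39 ± 0.12 (adjusted p = 0.0616) by edgeR.

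Assembly factors gave 1 call for most complexes. By the same test 3.22% of all genes were called lower, and 7.58% of the shortest class of protein-coding genes. Differences from these shares were not tested. Among 16 tested factors of complex I, Ndufaf4 was called lower, with 39.7, 43.5, 40.4 and 32.2 CPM at 1 week and 26.5, 28.0, 22.5 and 25.1 CPM at 8 weeks (-0.61 ± 0.12, adjusted p = 0.0169, edgeR). It was called with the offset as well (-0.62, adjusted p = 0.0257), and its longest annotated protein-coding transcript has 3632 bp. Dmac1 and Ndufaf7, other factors of complex I, had -0.50 ± 0.14 and -0.43 ± 0.13 (adjusted p = 0.0501 and 0.0611, edgeR). Uqcc2 was the call among 6 factors of complex III (-0.53 ± 0.14, adjusted p = 0.0422), Cox14 among 21 of complex IV (-0.48 ± 0.11, adjusted p = 0.0303) and Tmem242 among 5 of the ATP synthase (-0.55 ± 0.13, adjusted p = 0.0331), by edgeR. These 3 were not called with the offset. Among 4 factors of complex II 0 were called, and Sdhaf1 had the smallest p (-0.38 ± 0.18, adjusted p = 0.175, edgeR). Of the factors not called, Sdhaf4 and Sdhaf2 of complex II had -0.45 ± 0.33 and -0.09 ± 0.10, and Uqcc1 and Uqcc3 of complex III 0.26 ± 0.15 and -0.24 ± 0.14. Pet100 and Coa3 of complex IV had -0.51 ± 0.16 and -0.53 ± 0.19, and Fmc1 and Tmem70 of the ATP synthase -0.46 ± 0.21 and -0.24 ± 0.13. Adjusted p of these 8 lay between 0.0701 (Pet100) and 0.597 (Sdhaf2) by edgeR.

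The mitochondrial ribosome, which translates the 13 mitochondrial mRNAs, had all 77 tested protein genes at a negative log2 fold change, with a median of -0.33. Negative values made up 81.1% of the shortest class of protein-coding genes, and the list had a median length of 1339 bp. Of the 77 genes, 10 were called lower, against 3.22% of all genes tested. In the shortest class of protein-coding genes 7.58% were called lower, and 12.1% of those with at least 20 CPM. The 10 were Mrpl41, Mrpl40, Mrps24, Mrpl20, Mrpl23, Mrpl35, Mrpl12, Mrpl18, Mrpl13 and Mrpl42, from -0.60 ± 0.13 (Mrpl41) to -0.38 ± 0.10 (Mrpl42). With the offset the median was -0.16, and 1 was called, Mrpl35, against 1.48% of all genes. The citric acid cycle and pyruvate dehydrogenase gave 0 calls among 17 genes (median -0.20), with Idh3a, a subunit of isocitrate dehydrogenase, at -0.37 ± 0.12 (adjusted p = 0.0790, edgeR). Pdhx, a subunit of pyruvate dehydrogenase, and Suclg1, of succinyl-CoA ligase, had -0.27 ± 0.11 and -0.28 ± 0.12 (adjusted p = 0.142 and 0.143, edgeR). Coenzyme Q synthesis gave 0 among 13 (median -0.11), with Coq3, a methyltransferase, at -0.45 ± 0.14 (adjusted p = 0.0731, edgeR), and the hydroxylases Coq6 and Coq7 at -0.40 ± 0.14 and -0.29 ± 0.13 (adjusted p = 0.0828 and 0.186). Carriers and channels gave 0 among 10 (median -0.27), with Vdac3, a pore of the outer membrane, at -0.37 ± 0.13 (adjusted p = 0.0915, edgeR), and the ADP/ATP carriers Slc25a4 and Slc25a5 at -0.32 ± 0.12 and -0.34 ± 0.13 (adjusted p = 0.0984 and 0.114).

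Machinery that copies, transcribes and processes mitochondrial nucleic acids gave 0 calls among 29 genes, with a median of -0.08. Tfam, which packages mitochondrial DNA and starts its transcription, stood at 43.1 ± 6.41 CPM at 1 week and 39.3 ± 2.13 CPM at 8 weeks, and Polrmt, the mitochondrial RNA polymerase, at 36.2 ± 4.57 and 35.3 ± 1.79 CPM (SD, n = 4). Lrpprc, which stabilises mitochondrial mRNAs, stood at 97.9 ± 12.6 and 104 ± 6.79 CPM. Its partner Slirp had -0.46 ± 0.15 (adjusted p = 0.0721), and Hsd17b10, a subunit of mitochondrial RNase P, had the smallest p of the list (-0.51 ± 0.14, adjusted p = 0.0516), by edgeR. Ssbp1, the protein that binds single-stranded mitochondrial DNA, had -0.31 ± 0.11 (adjusted p = 0.0855, edgeR). Differences in Tfam, Polrmt and Lrpprc were within the spread between libraries.

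Regulators of the nuclear genes gave 0 calls among 10, with a median of -0.02. Nrf1 stood at 47.6 ± 4.90 CPM at 1 week and 45.9 ± 3.84 CPM at 8 weeks, Gabpa, the DNA-binding part of GABP, at 113 ± 4.37 and 118 ± 7.24 CPM, and Yy1 at 104 ± 6.88 and 112 ± 5.28 CPM (SD, n = 4). Esrra, an estrogen-related receptor, stood at 26.2 ± 2.87 and 23.2 ± 1.18 CPM. The coactivator Ppargc1a was low, with 1.70, 1.13, 1.94 and 2.23 CPM at 1 week and 3.00, 1.12, 3.94 and 3.23 CPM at 8 weeks in overlapping ranges (0.70 ± 0.39, adjusted p = 0.264, edgeR).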

How the data were processed

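The deposited table held raw read counts per gene and library, as deposited by the authors. It also held the authors' normalized signal (counts divided by 1 size factor per library, and its mean), and the authors' log2 fold change with SE, Wald score, p-value and adjusted p-value. Tools listed in the submitters' processing notes, without roles, are DESeq2 1.26.0, HTSeq 0.6.0, TopHat2 2.1.1, cutadapt 2.10 and bcl2fastq 2.20.0.422, with the build GRCm38. The annotation release, the strand setting and the treatment of reads with several alignments are not given in the sources used here.

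The test on these counts used edgeR 4.0.16 (R 4.3.3): filterByExpr (minimum count 10, minimum total 15), TMM, and the quasi-likelihood F test of 8 weeks against 1 week, two-sided, over all 14533 genes tested. Calls are genes with an adjusted p (Benjamini-Hochberg) under 0.05. CPM are TMM-scaled, errors of CPM are SDs over libraries, and errors of log2 fold changes are SEs. DESeq2 1.42.0, limma-voom (limma 3.58.1), other scalings and filters, offsets on transcript length and GC content (splines with 4 degrees of freedom), replicate blocks and libraries left out were alternatives. Tables were summarised in Python 3.11.15 with pandas 2.3.3 and numpy 2.4.6, and the fits were tested on simulated data.

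Transcripts came from GENCODE M21, which held 23312 of the genes (99.8%) by identifier. Lengths given for genes and length classes are those of the longest protein-coding transcript. Library slopes, and offsets not named for the protein-coding transcript, used the longest transcript of any kind. Shared words were exact matches of 50 bases on transcripts. All columns of per-sample values were matched to the labels' library names. Named were all mitochondrially encoded members, every called member, the most abundant and the 3 smallest p of each complex, the isoform sets, and the 3 smallest p of each other list; regulators were given whatever their values. A result that this rule would name is not reported here. Members and lists were chosen with earlier results of these data known. The labels count 4 animals an age and do not say whether they share litters, so p-values measure the spread between these libraries.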

Additional observations from a re-analysis of the deposited data

Results flagged for a closer look

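Within an age, 110 sets of 4 values were examined for a library far from the others, and 4 were marked. Chance marks about 1 in 20 such groups. mt-Nd6 stood at 85.0 CPM in 1 week 4, against 47.0 to 51.2 CPM in the other libraries of 1 week. mt-Atp6, whose reads are shared with a nuclear copy, stood at 5.27 CPM in 1 week 2, against 9.48 to 9.77 CPM. Sdhd stood at 98.5 CPM in 1 week 1, against 87.6 to 88.1 CPM. Ndufa4 stood at 59.8 CPM in 1 week 1, against 44.1 to 46.7 CPM. All 4 were in libraries of 1 week.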

How the results depend on the processing

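The number of OXPHOS members called lower, 22 as reported, was 8 with library size alone, 10 without a filter, 47 by DESeq2 and 46 by limma-voom. It was 5 with an offset on length and GC content and 5 on length alone, and 3 with the offset on the protein-coding transcript. It was 0 without 1 week 1 and 1 week 4, and 0 without 1 week 1, 8 weeks 1 and 8 weeks 3, where edgeR called 0 of 14981 genes and 8 members were lower at an unadjusted p under 0.05. That last set and the offset on the protein-coding transcript were chosen after seeing the data. Leaving out 1 library gave 1 to 50 calls lower and 0 to 1 higher (mt-Nd2, without 1 week 3). DESeq2 size factors gave 22, upper-quartile scaling 23, scaling without mitochondrial rows 22 and a filter at 5 CPM 26.

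The nuclear-encoded median of -0.40 was -0.12 with the length and GC offset, -0.13 with the length offset, -0.13 with that on the protein-coding transcript, and -0.17 without 1 week 1, 8 weeks 1 and 8 weeks 3. Why these values moved was not tested. Over the 23 alternatives run for it, the mitochondrially encoded median lay between 0.04 and 0.66. Over the 13 run for them, the difference in mitochondrial share lay between 0.00997 and 0.155 percentage points, and that in the log2 ratio between 0.15 and 0.92. The lowest value of all 3 came without 1 week 1, 8 weeks 1 and 8 weeks 3.

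With a replicate block from the titles 2 members were called lower, and 161 of all 14533 genes tested were called in either direction. With a block from the library names 1 member was called lower, and 92 of 14514 genes were called. Only the numbers 1, 2 and 5 of the library names occur at both ages. Libraries with other numbers were left out of the fit with the library names. Same-numbered libraries did not deviate together (correlations -0.34, -0.11, -0.03 and -0.12, and 0 of 4 libraries closest to their own number), so the numbers were not taken as pairs. Paired by title number, the replicate block left the mean difference in mitochondrial share at 0.110 ± 0.174 and in the log2 ratio at 0.73 ± 0.80 (SD over 4 pairs). Counts of a few per library limit mt-Nd4l, Cox4i2 and Cox7a1, which were not tested.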
